A study of Mus musculus with 6 samples.

Results

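The dual-specificity MAP kinase phosphatases described here were 10 named mouse genes, Dusp1, Dusp2, Dusp4, Dusp5, Dusp6, Dusp7, Dusp8, Dusp9, Dusp10 and Dusp16, of 55487 genes in the deposited tables. They were chosen by name, and each symbol matched 1 Ensembl gene. All 6 libraries came from cultured chondrocytes of C57B/6 mouse knee cartilage that received extracellular vesicles (membrane-bound particles shed by cells) from macrophages for 24 h, dosed at 10 µg/ml by protein. In the 3 M-LPS-EV libraries the macrophages had been exposed to LPS (lipopolysaccharide of the outer bacterial membrane), and in the 3 M-EV libraries they had not. The labels give no age, sex or number of animals and do not say that replicates were separate cultures, so the p-values reflect the spread among these 6 libraries alone, which may be technical. Cells without vesicles were not analysed here, so each difference is between the vesicle types at 1 time point.

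MAP kinases (ERK, JNK and p38) are switched on by phosphorylation of a threonine and a tyrosine in the activation loop, and these phosphatases switch them off by removing both phosphates. Several are themselves transcribed in response to MAP kinase activity, which makes a negative feedback loop. In cartilage, ERK acts downstream of fibroblast growth factors, and JNK and p38 act downstream of inflammatory cytokines and bacterial products. The phosphatases are grouped by place and substrate. Dusp1, Dusp2, Dusp4 and Dusp5 are nuclear and inducible. Dusp6, Dusp7 and Dusp9 are cytoplasmic and prefer ERK. Dusp8, Dusp10 and Dusp16 prefer p38 and JNK.

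Of the 10 members, 8 had enough counts to be tested, 2 were called higher with M-LPS-EV (Dusp1 and Dusp16), none was called lower and 6 were not called (two-sided quasi-likelihood test in edgeR, Benjamini-Hochberg adjusted over all 14604 tested genes, called where the adjusted p was below 0.05). The 2 called members are 25% of those tested, beside 31.6% of all tested genes called in either direction and 16.4% called higher. Both point estimates were under 1.2-fold, at 1.17-fold for Dusp1 (95% interval 1.08 to 1.26) and 1.18-fold for Dusp16 (1.05 to 1.33), and 51.1% of all called genes were also under that size. Against a change of at least 1.2-fold 0 of the 8 were called, beside 7.79% of all tested genes, on log2(TPM + 1) in limma 0 of 8, beside 18.0%, and with effective transcript lengths as an offset 1 of 8, beside 19.6%. None was lower at an unadjusted p under 0.05 either, by edgeR, and DESeq2 called 1 of the 8 higher and 0 lower, beside 23.3% of the 16260 genes to which it gave an adjusted p. The tested members had a median log2 fold change, M-LPS-EV over M-EV, of 0.15, beside 0.0028 over all tested genes, and a median size without sign of 0.163, beside 0.13. The 95% intervals of all 8 tested members lay between log2 fold changes of -0.56 and 0.58, so a doubling or a halving lay outside the interval of each. In these bulk libraries, fewer cells of a type and less RNA per cell cannot be told apart.

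**Figure D1:**
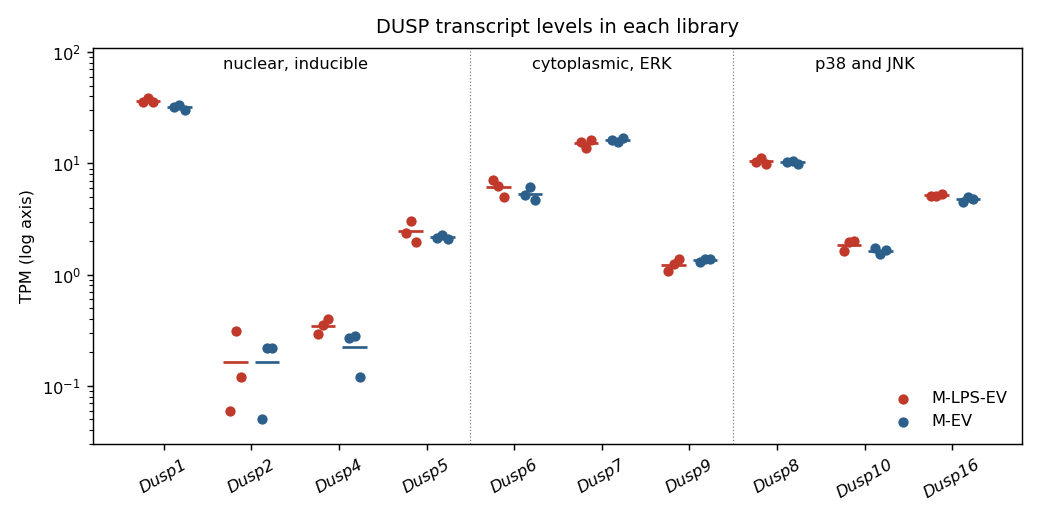
Level in TPM (each gene's share of all transcripts, scaled for length, log axis) of the 10 phosphatase genes in each library, with M-LPS-EV left of M-EV for each gene and a bar at the group mean. The groups lie close together for the 8 tested genes. Dusp1 is highest at means of 36.7 TPM with M-LPS-EV and 32.0 TPM with M-EV, and Dusp2 lowest at 0.163 TPM in both groups. Dusp4, at means of 0.347 TPM with M-LPS-EV and 0.223 TPM with M-EV, rests on few counts.

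Levels are compared between genes as TPM, a share of all transcripts in the library that is scaled by effective transcript length. In M-LPS-EV libraries Dusp1 led with a mean of 36.7 TPM, followed by Dusp7 with 15.2, Dusp8 with 10.5, Dusp6 with 6.08, Dusp16 with 5.16, Dusp5 with 2.47, Dusp10 with 1.86, Dusp9 with 1.23, Dusp4 with 0.347 and Dusp2 with 0.163 TPM. The order was the same in M-EV libraries, from Dusp1 at 32.0 TPM through Dusp7 at 16.3 and Dusp8 at 10.2 TPM down to Dusp2 at 0.163 TPM. Neighbours whose ranges overlapped, and which therefore did not differ beyond their spread, were Dusp6 and Dusp16 and also Dusp4 and Dusp2 in both groups, and Dusp5 and Dusp10 with M-LPS-EV. The 10 genes together held 79.1, 81.8 and 78.2 TPM in the M-LPS-EV libraries, against 73.6, 76.7 and 71.9 TPM in the M-EV libraries. Dusp1 made up most of that gap, and the sums are given without a test.

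By class, the nuclear genes summed to 39.7 ± 2.23 TPM with M-LPS-EV and 34.5 ± 2.03 TPM with M-EV (SD, n = 3 each). The cytoplasmic ERK phosphatases summed to 22.6 ± 1.21 TPM with M-LPS-EV and 22.9 ± 0.203 TPM with M-EV. The p38 and JNK phosphatases summed to 17.5 ± 0.621 TPM with M-LPS-EV and 16.6 ± 0.428 TPM with M-EV. The nuclear class held 48.4%, 51.6% and 49.2% of the summed TPM in the M-LPS-EV libraries, against 46.8%, 47.7% and 45.2% in the M-EV libraries. Most of the nuclear sum was Dusp1, with means of 36.7 TPM with M-LPS-EV and 32 TPM with M-EV. The sums and shares of that class therefore mainly describe this gene.

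Among the nuclear phosphatases, Dusp1 (ENSMUSG00000024190, chromosome 17, 26505590 to 26562128, minus strand, mm10) encodes MKP-1, an immediate-early enzyme that acts on p38, JNK and ERK and is known as a brake on innate inflammation. It had 35.6, 38.5 and 36.0 TPM in M-LPS-EV libraries, against 32.0, 33.8 and 30.1 TPM in M-EV libraries. Every M-LPS-EV library lay above every M-EV library. Groups that did not overlap were seen for 2 of the 8 tested members, Dusp1 and Dusp16, in TPM (beside 35.9% of all tested genes) and likewise in library-scaled counts (CPM, beside 42.2%). On counts Dusp1 rose with a log2 fold change of 0.23 (SE 0.055, 95% interval 0.11 to 0.34, edgeR adjusted p = 0.0022), from 2274 counts over the M-LPS-EV libraries and 2082 over the M-EV libraries, which held more counts in total. The call ended under 3 of 17 alternatives, namely on log2(TPM + 1) with 0.19 (limma adjusted p = 0.053), on log2(TPM + 0.1) with 0.20 (limma adjusted p = 0.052) and against a change of at least 1.2-fold (edgeR adjusted p = 1), over a range of adjusted p from 0.00026 to 1.

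Dusp5 (ENSMUSG00000034765, chromosome 19, 53529109 to 53542431, plus strand) encodes a nuclear phosphatase specific for ERK. It had 2.37, 3.05 and 1.98 TPM with M-LPS-EV, against 2.15, 2.28 and 2.09 TPM with M-EV. The M-LPS-EV libraries held both the highest and the lowest value, and the groups overlapped. The log2 fold change was 0.21 (SE 0.18, 95% interval -0.15 to 0.58, edgeR adjusted p = 0.4), which moved to 0.02 without M-LPS-EV replicate 2 and to 0.35 without M-LPS-EV replicate 3. The other 2 nuclear genes had too few counts for the test. Dusp4 (chromosome 8, 34807297 to 34819894, plus strand), which encodes the ERK and JNK phosphatase MKP-2, had 0.29, 0.35 and 0.40 TPM with M-LPS-EV, against 0.27, 0.28 and 0.12 TPM with M-EV. The groups did not overlap, but the values rest on few reads. Dusp4 had 9, 12 and 12 counts with M-LPS-EV and 10, 9 and 4 counts with M-EV, a ratio of 1.56 per library size with an exact 95% counting interval of 0.89 to 2.79. Dusp2 (PAC-1, chromosome 2, 127336159 to 127338376, plus strand), best known from blood cells, had 1, 6 and 2 counts with M-LPS-EV and 1, 4 and 4 counts with M-EV, a ratio of 1.09 with an interval of 0.383 to 3.1. Both intervals hold 1 and cover counting error only.

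The start-site windows of 3 members are shown because each carries a match to a transcription factor motif that was searched for. The sequences are from RefSeq on GRCm38.p6, the mm10 assembly, and run 5′ to 3′ on the gene's strand, 250 bases before to 50 after the start. Capitals mark matches to the CREB/ATF motif in Dusp1 and Dusp8 and to the CArG box of SRF in Dusp5. The windows are chr17:26508423-26508722 (minus strand), chr19:53528895-53529194 (plus strand) and chr7:142095235-142095534 (minus strand). Those of Dusp1 and Dusp8 lie inside the annotated loci, which reach further upstream.
Dusp1: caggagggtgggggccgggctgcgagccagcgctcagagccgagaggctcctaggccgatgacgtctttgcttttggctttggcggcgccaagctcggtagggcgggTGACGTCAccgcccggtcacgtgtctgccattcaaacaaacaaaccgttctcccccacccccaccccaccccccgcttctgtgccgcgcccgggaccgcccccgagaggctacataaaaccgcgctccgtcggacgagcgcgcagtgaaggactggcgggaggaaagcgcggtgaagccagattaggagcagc
Dusp5: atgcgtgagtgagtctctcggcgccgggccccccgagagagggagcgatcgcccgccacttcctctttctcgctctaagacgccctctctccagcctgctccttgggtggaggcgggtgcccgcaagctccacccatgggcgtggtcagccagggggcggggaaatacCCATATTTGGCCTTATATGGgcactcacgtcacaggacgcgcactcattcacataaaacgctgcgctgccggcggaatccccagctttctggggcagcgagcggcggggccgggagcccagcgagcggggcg
Dusp8: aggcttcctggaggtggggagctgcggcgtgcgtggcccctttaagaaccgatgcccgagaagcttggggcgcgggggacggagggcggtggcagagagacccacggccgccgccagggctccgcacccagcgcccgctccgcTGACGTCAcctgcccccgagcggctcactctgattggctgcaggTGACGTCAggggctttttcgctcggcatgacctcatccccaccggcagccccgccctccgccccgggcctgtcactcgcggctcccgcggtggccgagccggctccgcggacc

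Windows were found for 8 members, all but Dusp4 and Dusp9, and were searched on both strands. The CREB/ATF motif TGACGTCA lay at positions -143 to -136 in Dusp1 and at -107 to -100 and -63 to -56 in Dusp8, counted with the first transcribed base as 0. That makes 2 of 8 members, and 1.79% of all 32851 windows held it. The CArG box lay at -82 to -73 and at -72 to -63 in Dusp5 and in no other member window, beside 1.63% of all windows. The AP-1 motif TGANTCA (7.81% of all windows) and the NF-kB consensus (4.51%) matched in 0 of the 8 member windows. TGACGTCA does not contain TGANTCA, so the searches did not overlap. Of the members with a match, Dusp1 was called higher, and Dusp5 and Dusp8 were not called.

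Dusp6, Dusp7 and Dusp9 showed no call. Dusp6 (MKP-3; ENSMUSG00000019960, chromosome 10, 99263231 to 99267489, plus strand) is the classical feedback inhibitor of ERK downstream of fibroblast growth factor receptors, and its loss in mice can stunt skeletal growth. It had 7.07, 6.22 and 4.95 TPM with M-LPS-EV, against 5.22, 6.09 and 4.67 TPM with M-EV. The groups overlapped, and replicate 3 was the lowest library of each group. Its log2 fold change was 0.09 (SE 0.11, 95% interval -0.14 to 0.32, edgeR adjusted p = 0.59). It was 0.20 with effective transcript lengths, and ran from 0.0072 when M-EV replicate 3 was omitted to 0.20 when M-EV replicate 2 was omitted, with no call. Dusp7 (ENSMUSG00000053716, chromosome 9, 106368632 to 106375724, plus strand), also an ERK phosphatase, had 15.7, 13.9 and 16.1 TPM with M-LPS-EV, against 16.2, 15.5 and 17.1 TPM with M-EV. Its groups overlapped too. Its log2 fold change was -0.06 (SE 0.057, 95% interval -0.18 to 0.06, edgeR adjusted p = 0.47), among the narrowest intervals of the family, and was -0.0047 when M-LPS-EV replicate 2 was omitted. Dusp9 (MKP-4; ENSMUSG00000031383, chromosome X, 73639419 to 73643514, plus strand), best known from placenta and metabolic tissues, had 1.07, 1.25 and 1.38 TPM with M-LPS-EV, against 1.31, 1.38 and 1.39 TPM with M-EV. With 33 to 43 counts per library for M-LPS-EV and 44 to 48 for M-EV, its log2 fold change of -0.13 had the lowest interval bound of the family (95% interval -0.56 to 0.30, edgeR adjusted p = 0.7). It was -0.036 when M-LPS-EV replicate 1 was omitted and -0.21 when M-LPS-EV replicate 3 was omitted.

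Among the p38 and JNK phosphatases, Dusp16 (MKP-7; ENSMUSG00000030203, chromosome 6, 134715468 to 134792625, minus strand), which shuttles between cytoplasm and nucleus and acts on JNK and p38, had 5.05, 5.11 and 5.33 TPM with M-LPS-EV, against 4.48, 4.98 and 4.79 TPM with M-EV. The groups did not overlap, but the lowest M-LPS-EV library stood close to the highest M-EV library. On counts it rose with a log2 fold change of 0.24 (SE 0.082, 95% interval 0.07 to 0.41, edgeR adjusted p = 0.026). This call ended under 8 of 17 alternatives, over which the adjusted p ran from 0.0097 to 1. With effective transcript lengths as an offset the log2 fold change was 0.13 (edgeR adjusted p = 0.31), on log2(TPM + 1) it was 0.10 (limma adjusted p = 0.47), and DESeq2 gave an adjusted p of 0.074. Leaving out single libraries ended it too. The edgeR adjusted p was 0.079 when M-LPS-EV replicate 2 was omitted (log2 fold change 0.23), 0.074 when M-LPS-EV replicate 3 was omitted (0.22) and 0.17 when M-EV replicate 3 was omitted (0.16).

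Dusp8 (ENSMUSG00000037887, chromosome 7, 142079490 to 142095843, minus strand), a JNK and p38 phosphatase known mainly from brain and heart, was the third most abundant member in both groups. It had 10.3, 11.1 and 9.97 TPM with M-LPS-EV, against 10.3, 10.6 and 9.84 TPM with M-EV. The libraries of both groups were interleaved. The log2 fold change was 0.05 (SE 0.054, 95% interval -0.07 to 0.16, edgeR adjusted p = 0.58), an interval that ends below 1.2-fold. Dusp10 (MKP-5; ENSMUSG00000039384, chromosome 1, 184013302 to 184075636, plus strand), which acts on p38 and JNK and limits innate immune responses in mice, had 1.64, 1.95 and 2.00 TPM with M-LPS-EV, against 1.72, 1.52 and 1.65 TPM with M-EV. One M-LPS-EV library lay below an M-EV library, so the groups overlapped. Its log2 fold change was 0.20 (SE 0.18, 95% interval -0.16 to 0.56, edgeR adjusted p = 0.43).

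**Figure D2:**
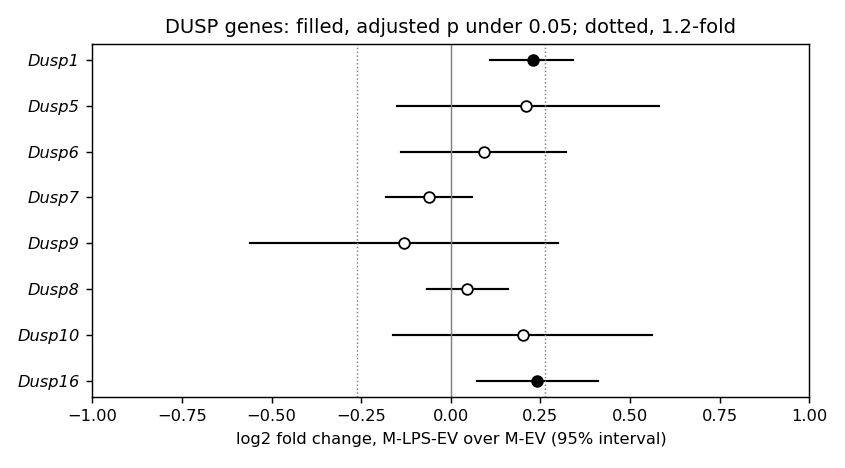
Log2 fold changes (M-LPS-EV relative to M-EV) of the 8 tested phosphatase genes, with 95% intervals from the edgeR quasi-likelihood fit. Filled points mark Dusp1 and Dusp16, the 2 genes with an adjusted p under 0.05, and the dotted lines mark a 1.2-fold change in either direction, which neither point passes.

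The expression profile nearest to that of Dusp16, the called member with the largest change, was that of Ccdc22, with a root mean square difference of 0.0281 in centred log2(CPM + 0.5) over the 6 libraries, among 12976 genes of at least 1 CPM. Peak1 (0.0322), Jag1 (0.0324), Fmnl3 (0.0381) and Prmt9 (0.0394) came next. Of these, Jag1 and Prmt9 were not called (edgeR adjusted p = 0.2 and 0.064). The log2 fold changes of Dusp16 (0.24, SE 0.082) and Dusp1 (0.23, SE 0.055) differed by less than either SE. The choice of Dusp16 therefore rests on point estimates alone. No error was estimated for the distances, so the order of the neighbours was not tested.

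Transcripts of the same gene were compared as percent of the gene's TPM, as a description without a test, since RSEM estimates how reads that fit several transcripts are shared. Dusp4, Dusp5 and Dusp9 have only 1 transcript each in the deposited tables, so no share could be compared. Dusp2, Dusp8 and Dusp10 have more than 1, and had all of their TPM on 1 transcript in every library. For Dusp2 this rests on 1 to 6 counts per library. For Dusp1 the 1990-base coding transcript Dusp1-202 held 65.5%, 73.7% and 64.0% with M-LPS-EV, against 57.2%, 64.6% and 61.2% with M-EV. The shorter coding transcript Dusp1-206 (1587 bases) held 19.4%, 11.2% and 20.4% with M-LPS-EV, against 30.6%, 24.3% and 29.1% with M-EV. Its groups did not overlap, whereas those of Dusp1-202 did. Dusp1-204, annotated as an intron-retaining transcript, held 9.91%, 9.16% and 7.73% with M-LPS-EV, against 5.69%, 5.53% and 6.28% with M-EV. The groups of Dusp1-204 did not overlap either. These transcripts were singled out after their values were seen. How often transcript shares fail to overlap over all transcripts was not counted.

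For Dusp6 the main transcript Dusp6-201 held 78.4%, 82.2% and 88.7% in M-LPS-EV libraries and 100% in all 3 M-EV libraries. The rest lay on Dusp6-203 in M-LPS-EV replicate 1 (12.63 counts) and mainly on Dusp6-204 in M-LPS-EV replicates 2 and 3 (32.82 and 13.58 counts), so no single minor transcript was shared by all 3 libraries. For Dusp16 the 5104-base transcript Dusp16-201 ranged from 74.7% to 98.2% with M-LPS-EV and from 62.8% to 94.4% with M-EV. In M-EV replicate 3, 17.1% of the Dusp16 TPM was placed on the 629-base intron-retaining transcript Dusp16-206, from 4.54 counts. The ranges of both groups overlapped for Dusp16-201.

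**Figure D3:**
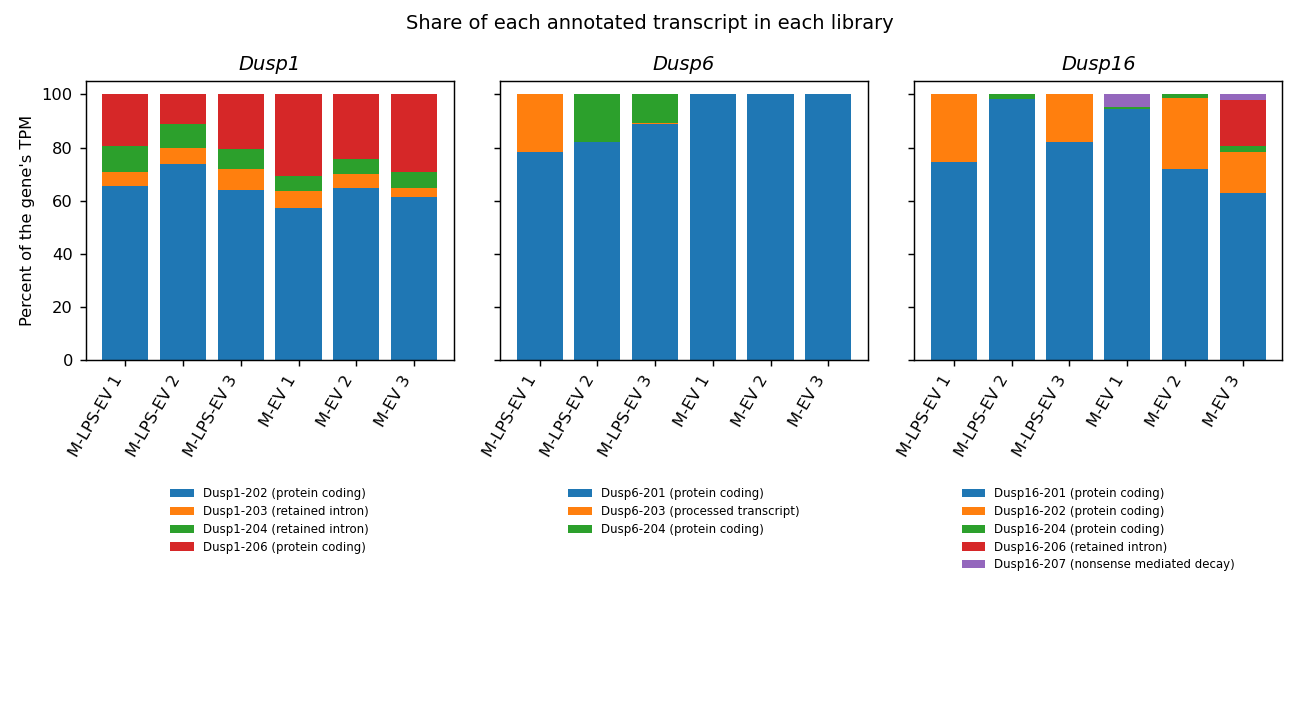
Percent of each gene's TPM held by each annotated transcript of Dusp1, Dusp6 and Dusp16, one stacked bar per library with M-LPS-EV left of M-EV. Dusp1-206 is smaller in each M-LPS-EV bar (11.2% to 20.4%) than in each M-EV bar (24.3% to 30.6%), and Dusp6 has a single transcript in the M-EV bars. Such gaps were not counted over all transcripts.

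Annotated genes overlap some members on the opposite strand, and the strand setting used for counting is not given in the sources used here. Ergic1 overlaps the far end of the Dusp1 locus and had 4323, 4986 and 4208 counts with M-LPS-EV, against 5708, 4894 and 5022 with M-EV. 1700056E22Rik overlaps the middle of Dusp10 with 4 to 11 counts for M-LPS-EV and 9 to 13 for M-EV. AC137853.2 overlaps the start of Dusp5 with at most 2.52 counts in a library.

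The kinase cascade around these phosphatases was read from 9 lists of other genes. Of their 120 genes 105 were tested, 22 were called higher and 15 lower with M-LPS-EV, or 35.2% beside the 31.6% of all tested genes. Only 6 of them rose by at least 1 on the log2 scale, namely Map3k8, Arrb1, Ier3, Mt1, Mt2 and Fosl1, the last named after its value was seen. The tested phosphatases lay between -0.13 and 0.24.

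**Figure D4:**
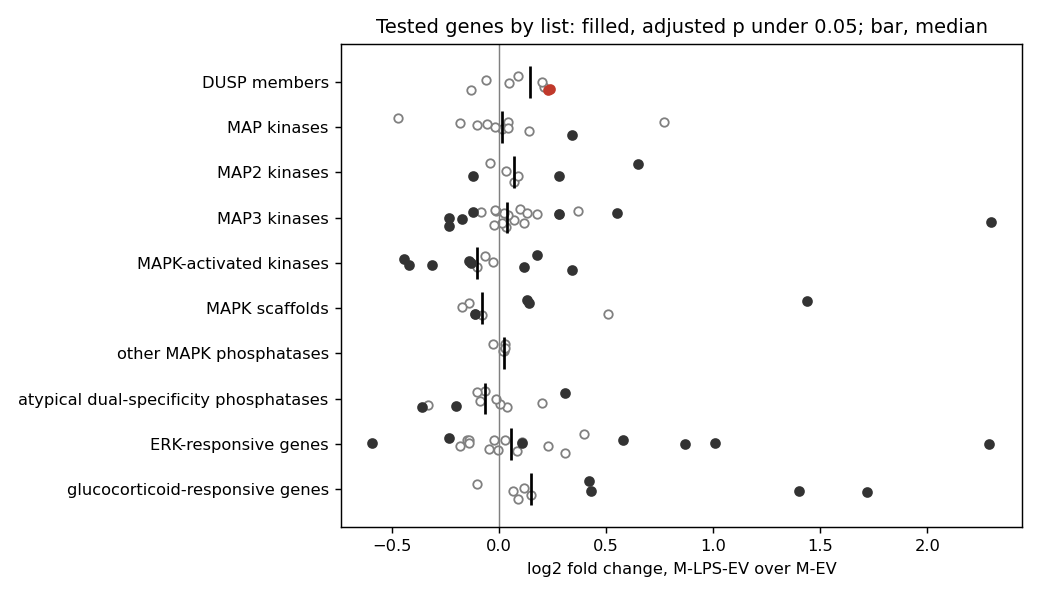
Log2 fold changes (M-LPS-EV relative to M-EV) of the tested phosphatase genes (top) and the tested genes of 9 lists, one point per gene, filled where the adjusted p was under 0.05, with a bar at each median. The phosphatases lie between -0.13 and 0.24, and Map3k8 (2.30), Ier3 (2.29) and Arrb1 (1.44) stand far to the right in their lists.

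The kinases that these phosphatases act on were mostly not called. Of 11 tested MAP kinase genes 1 was called higher and 0 lower, or 9.09% beside 31.6% of all tested genes. Their median log2 fold change was 0.02, with 3 lower at an unadjusted p under 0.05 in edgeR and 0 lower by DESeq2. Mapk3, which encodes ERK1, rose to 73.7 ± 1.31 CPM with M-LPS-EV, against 58.0 ± 1.88 CPM with M-EV (SD, n = 3 each, log2 fold change 0.34, SE 0.04, edgeR adjusted p = 6e-08). Against a change of at least 1.2-fold it was not called (edgeR adjusted p = 0.063). Mapk9 (JNK2), Mapk11 (p38 beta) and Mapk12 (p38 gamma) had log2 fold changes of -0.10, 0.77 and -0.47 and were not called (edgeR adjusted p = 0.054, 0.07 and 0.087). Mapk9 was called with RLE or upper-quartile scaling, with a mean count of at least 50 and without M-EV replicate 3, and Mapk11 (edgeR adjusted p = 0.048) when M-LPS-EV replicate 3 was omitted. Over their alternatives the adjusted p ran from 0.028 to 1 for Mapk9, and from 0.048 to 0.31 for Mapk11.

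One tier up, 2 of 7 MAP2 kinase genes rose and 1 fell (42.9% called, beside 31.6% of all tested genes, median 0.07). Map2k1 (MEK1, an ERK activator) rose to 83.4 ± 1.30 CPM with M-LPS-EV, against 68.7 ± 1.32 CPM with M-EV (SD, n = 3 each), but was not called against a change of at least 1.2-fold (edgeR adjusted p = 0.81). Map2k6, an activator of p38, had 2.40 ± 0.211 CPM with M-LPS-EV and 1.52 ± 0.217 CPM with M-EV (log2 fold change 0.65, edgeR adjusted p = 0.018), and Map2k4, an activator of JNK, had a log2 fold change of -0.12 (edgeR adjusted p = 0.047). Those calls ended under 7 of 16 and 11 of 17 alternatives, with adjusted p from 0.014 to 0.14 and from 0.023 to 1. The Map2k6 call ended when M-LPS-EV replicate 1, M-LPS-EV replicate 3, M-EV replicate 2 or M-EV replicate 3 was omitted (log2 fold changes 0.62, 0.60, 0.60 and 0.58), and the Map2k4 call when M-LPS-EV replicate 2, M-LPS-EV replicate 3, M-EV replicate 2 or M-EV replicate 3 was omitted (-0.086, -0.12, -0.084 and -0.12). Map2k2 (MEK2) was not called, with a log2 fold change of 0.07 (edgeR adjusted p = 0.16, or 0.043 with 0.10 when M-LPS-EV replicate 2 was omitted, over a range from 0.043 to 1).

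Of 22 tested MAP3 kinase genes 3 rose and 4 fell (31.8% called, beside 31.6% of all tested genes, median 0.04). Map3k8, which encodes TPL2, the kinase that links NF-kB activation to ERK in innate immune cells, had 4.86 ± 0.369 CPM with M-LPS-EV and 0.981 ± 0.0876 CPM with M-EV (log2 fold change 2.30, SE 0.19, edgeR adjusted p = 2.5e-10). Its log2 fold change was 1.47 at the lowest of its 17 alternatives, all of which kept the call. Map3k1 (MEKK1) rose by 0.55 (SE 0.048), but was not called with effective transcript lengths and on both TPM scales (limma adjusted p = 0.18). Map3k3 and Araf fell by 0.23 each on the log2 scale, calls that ended against a change of at least 1.2-fold (edgeR adjusted p = 1 for both).

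Downstream, 8 of 11 kinases activated by MAP kinases were called, 3 higher and 5 lower (median -0.10). That is 72.7%, beside 31.6% of all tested genes. With effective transcript lengths 1 was called higher and 3 lower, beside 19.6% of all tested genes. On log2(TPM + 1) 0 were higher and 3 lower, beside 18.0%. Against a change of at least 1.2-fold 0 were higher and 1 lower, beside 7.79%. Rps6ka2 (an RSK kinase) had 32.3 ± 1.39 CPM with M-LPS-EV and 43.8 ± 1.36 CPM with M-EV (log2 fold change -0.44, edgeR adjusted p = 1.9e-08). Mknk1 (MNK1) and Mapkapk3 (MK3) fell by 0.31 and 0.42 on the log2 scale. Rps6ka1, another RSK kinase, rose by 0.34, a call that ended on both TPM scales (limma adjusted p = 0.08 and 0.075). Against a change of at least 1.2-fold, Rps6ka1, Mknk1 and Mapkapk3 were not called (edgeR adjusted p = 0.3, 0.19 and 0.16). Of 9 tested scaffold genes 3 rose and 1 fell (44.4% called, beside 31.6% of all tested genes, median -0.08). Arrb1 (beta-arrestin 1) had 15.1 ± 2.22 CPM with M-LPS-EV and 5.53 ± 0.426 CPM with M-EV. Its log2 fold change of 1.44 was 0.64 at the lowest of 17 alternatives, all of which kept the call. Iqgap1 rose by 0.14, Mapk8ip3 (JIP3) by 0.13, and Spag9 (JIP4) fell by 0.11 on the log2 scale. The Iqgap1 call ended against a change of at least 1.2-fold (edgeR adjusted p = 1). The Mapk8ip3 and Spag9 calls ended under 7 and 4 of 17 alternatives, that of Mapk8ip3 also when M-LPS-EV replicate 1, M-LPS-EV replicate 2 or M-EV replicate 2 was omitted (0.12, 0.10 and 0.09).

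Other phosphatases of MAP kinases were tested in 5 of 8 cases. None was called by edgeR, beside 31.6% of all tested genes (0 of 5 at an unadjusted p under 0.05 and 0 by DESeq2). Ppp2ca and Ppp2cb, the catalytic subunits of protein phosphatase 2A, and Ppm1a and Ppm1b, phosphatases of the PP2C family, had log2 fold changes from -0.03 to 0.03. Among 11 tested atypical dual-specificity phosphatases, small relatives without the MAP kinase binding domain, 1 rose and 2 fell (median -0.06). That is 27.3% called, beside 31.6% of all tested genes. Dusp14 had 18.5 ± 0.204 CPM with M-LPS-EV and 23.6 ± 1.18 CPM with M-EV (log2 fold change -0.36, edgeR adjusted p = 3.1e-05, or 0.18 against a change of at least 1.2-fold). Dusp3 (VHR) rose by 0.31 and Dusp22 fell by 0.20 on the log2 scale, calls that ended under 7 and 8 of 17 alternatives. The Dusp3 call ended when M-LPS-EV replicate 2 or M-EV replicate 1 was omitted (0.18 and 0.23), and the Dusp22 call when M-LPS-EV replicate 1, M-EV replicate 1 or M-EV replicate 3 was omitted (-0.17, -0.19 and -0.18). Styx, a relative without catalytic activity, was not called (log2 fold change -0.10, edgeR adjusted p = 0.095, or 0.014 when M-LPS-EV replicate 3 was omitted, with a range from 0.014 to 1 over the alternatives).

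Of 20 tested genes that respond to ERK, 5 rose, 2 fell and 13 were not called (median 0.06). The 7 called are 35% of the list, close to the 31.6% of all tested genes. Ier3, a stress-response gene, had 140 ± 5.63 CPM with M-LPS-EV and 28.8 ± 1.38 CPM with M-EV, and Phlda1 had 38.5 ± 1.04 CPM with M-LPS-EV and 21.1 ± 2.00 CPM with M-EV. Spred2, an inhibitor of RAS and ERK signalling, rose by 0.58 (SE 0.07), while the cyclin gene Ccnd1 had 70.8 ± 2.35 CPM with M-LPS-EV and 106 ± 2.74 CPM with M-EV. Of 9 genes that respond to glucocorticoids, which also raise Dusp1, 4 rose and none fell (median 0.15). None was lower at an unadjusted p under 0.05 in edgeR, and DESeq2 called 0 lower. The 4 are 44.4% of the list, beside 31.6% of all tested genes. Tsc22d3, Fkbp5, Per1, Klf9 and Zbtb16 were not called (log2 fold changes from -0.10 to 0.15). Whether glucocorticoid signalling had a part in the Dusp1 difference was not tested. The metal-binding metallothioneins Mt2 and Mt1, which also respond to metals and cytokines, rose by 1.72 and 1.40, and Sgk1 and Errfi1, a kinase and an inhibitor of the EGF receptor, by 0.43 and 0.42.

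The libraries held 20239626 to 23539911 counts with M-LPS-EV and 22274687 to 25712667 with M-EV. Chondrocyte markers summed to between 109341 and 111449 CPM with M-LPS-EV, against 129954 to 130863 CPM with M-EV. All 10 were expressed, led by Col2a1, Col11a1 and Acan, and 9 fell and none rose. That is 90% called, beside 31.6% of all tested genes called in either direction and 15.2% called lower. Their median log2 fold change was -0.37, with -0.17 for Col2a1. Sox9 was not called (0.058, edgeR adjusted p = 0.097). The 14 macrophage markers summed to 49.0 to 54.9 CPM with M-LPS-EV, against 45.7 to 49.2 CPM with M-EV, mostly from Lyz2, Mertk and Cd68. Of the 9 tested, Lyz2, Adgre1, Cd14 and Itgam rose and Mertk fell (55.6% called, beside 31.6% of all tested genes). Cd68, Csf1r, Tyrobp and Mrc1 were not called, with log2 fold changes from -0.08 to 0.20. Lyz2 had 22.2 CPM with M-LPS-EV and 15.5 CPM with M-EV, and Mertk 16.3 CPM with M-LPS-EV and 22 CPM with M-EV, so the summed level hides opposite changes. Adgre1 had 2.11 CPM with M-LPS-EV and 0.735 CPM with M-EV (log2 fold change 1.5, edgeR adjusted p = 4.3e-05), Cd14 had 2.02 CPM with M-LPS-EV and 0.889 CPM with M-EV (1.18, adjusted p = 0.00052), and Itgam had 1.45 CPM with M-LPS-EV and 0.825 CPM with M-EV (0.81, adjusted p = 0.031). These 3 were named after their values were seen. Cx3cr1 had 0 counts over the M-LPS-EV libraries and 2 over the M-EV libraries. The 7 fibroblast markers summed to 1635 to 1674 CPM with M-LPS-EV, against 1572 to 1594 CPM with M-EV, led by Dcn, Col1a2 and Lum. Of these 7 markers 2 rose and 3 fell, or 71.4% beside 31.6% of all tested genes. Endothelial markers summed to at most 2.83 CPM, and lymphocyte markers to at most 0.147 CPM with Cd3e at 0 in all libraries. Osteoblast markers summed to 35.6 to 40.3 CPM with M-LPS-EV, against 40.9 to 44.5 CPM with M-EV. Here too the sum hides opposite changes. Ibsp rose (log2 fold change 0.33, edgeR adjusted p = 0.0047), Sp7 fell (-0.38, edgeR adjusted p = 1.2e-05) and Bglap was not called. The called share was 66.7% of the 3 tested, beside 31.6% of all tested genes. The part of these cell types in the Dusp1 and Dusp16 differences was not tested.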

How the data were processed

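RNA of mouse chondrocytes was sequenced from libraries of a stranded mRNA kit, per the labels' protocols. The submitters' processing notes name the aligner STAR, the quantifier RSEM, the test DESeq2 and the build mm10. No version, setting or annotation is given in the sources used here. Each library has 1 transcript table: per the file headers the authors deposited expected counts (RSEM estimates, not whole), TPM, FPKM (not used here) and IsoPct, a percent of the gene. Of the transcripts, 99.07% were in GENCODE M21 (GRCm38), the source of coordinates, and 55141 genes had symbols.

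Expected counts were summed per gene, rounded, filtered with edgeR's filterByExpr (minimum count 10, minimum total 15), scaled by TMM and fitted with group as the only term (edgeR 4.0.16, glmQLFit and glmQLFTest, R 4.3.3). The SE is the log2 fold change divided by the root of F, and intervals use the moderated degrees of freedom. CPM use TMM-scaled library sizes. Alternatives used limma 3.58.1 and DESeq2 1.42.0 as well. Levels, transcripts and motifs are described without tests, and uncertainty in RSEM's sharing of reads is not modelled. No protein sequences were used here.

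The members, lists and tests were chosen with earlier results of these data known. Named are all members, up to 4 genes of each list with the smallest p, the leading markers and those at 0, and the 5 profiles nearest to the called member with the largest change. Fosl1, Adgre1, Cd14, Itgam, Cx3cr1 and the untested Ptpn7, Ptprr, Mapk10, Dusp21 and Dusp26 were named after their values were seen, as were the overlapping genes. So were the uncalled Csf1r, Tyrobp, Mrc1, Tsc22d3, Fkbp5, Per1, Klf9 and Zbtb16. In each group libraries differed by more than sampling noise (chi-square per degree of freedom 1.66 to 2.78).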

Additional observations from a re-analysis of the deposited data

How the results depend on the processing

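The count of 2 members called higher was 1 with effective transcript lengths and with DESeq2, and 0 on log2(TPM + 1), on log2(TPM + 0.1) and against a change of at least 1.2-fold. It ran from 1 to 2 when 1 library was left out, and was 1 without M-LPS-EV replicate 2, without M-LPS-EV replicate 3 or without M-EV replicate 3. No alternative called a member lower. Of the pathway genes 22 were called higher and 15 lower. These became 14 and 8 with effective transcript lengths, 13 and 9 on log2(TPM + 1), 14 and 9 on log2(TPM + 0.1), and 11 and 2 against a change of at least 1.2-fold. Uncalled values near 0 changed sign for Dusp8, which ranged from -0.0036 to 0.079 when 1 library was left out, and for Ppm1b (-0.0089 and -0.0092 on the TPM scales). Over all genes 3785 were called with DESeq2, 2868 with effective transcript lengths, 2622 on log2(TPM + 1), 2619 on log2(TPM + 0.1) and 1137 against a change of at least 1.2-fold, beside 4614 as reported. The cause of these differences was not tested.

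With the replicate number as a block (replicate block), 2 members were again called higher and none lower, and 4519 genes in all. Deviations from the group mean correlated at -0.00886, -0.0394 and -0.0182 between same-numbered libraries. Over all pairs across the groups the correlations ran from -0.0394 to 0.0387. Values this near 0 gave no ground to take the numbers as pairs, but cannot exclude pairing. The numbers were not taken as pairs.

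Depth limits the low members most. Dusp4 was tested under 6 alternatives, with log2 fold changes from 0.33 to 0.79 and no call (adjusted p from 0.29 to 0.66), and Dusp2 had 9 counts in each group.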

Other observations

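Dusp5 and AC137853.2, an antisense gene over its start, had fractional expected counts in the same libraries. They were 94.91 and 1.09 in M-LPS-EV replicate 2, 70.92 and 2.08 in M-EV replicate 1, and 65.48 and 2.52 in M-EV replicate 2. The sums were whole, at 96, 73 and 68 counts, and in the other 3 libraries AC137853.2 was at 0 and Dusp5 was whole. The part given to AC137853.2 was small beside the Dusp5 counts.

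Of the pathway genes that could not be tested, most were near 0 in both groups. Ptpn7, a tyrosine phosphatase of MAP kinases known from blood cells, had 15 counts over the M-LPS-EV libraries and 16 over the M-EV libraries. Ptprr, a related phosphatase, had 11 counts with M-LPS-EV and 20 with M-EV. Among the atypical phosphatases Dusp21 and Dusp26 had 0 counts in all libraries, while Mapk10, the JNK gene best known from brain, had 0 counts over the M-LPS-EV libraries and 1 over the M-EV libraries.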
